A study of Ictalurus furcatus with 16 samples.

Results

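A set of 10 genes known as regulators of undifferentiated spermatogonia was followed in testes of different ages. The testes came from Ictalurus furcatus, the blue catfish, a large river fish of North America. The genes were chosen by symbol: nanos1, nanos2, nanos3, id4, dnd1, gfra1a, zbtb16a, sall4, lin28a and pou5f3. Of these, 9 were present among the 26356 genes of the deposited tables. lin28a was not listed under that symbol, and its fish duplicates lin28aa and lin28ab are described beside the set without being counted in it. Of the 9 genes, 7 had enough counts to be tested, each with a single annotated transcript; dnd1 and gfra1a had too few.

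Undifferentiated spermatogonia are the germ cells at the base of sperm production, and some of them act as stem cells that renew themselves and give rise to differentiating daughters. In fish they lie singly or in small cysts, each enclosed by Sertoli cells, the somatic support cells of the germ line. Several kinds of regulator are known in them. Nanos proteins bind RNA and recruit the CCR4-NOT deadenylase, which shortens the tails of target messages, and nanos2 marks the least differentiated spermatogonia in mouse and in several fish. GFRA1 is the co-receptor through which the growth factor GDNF signals to the RET kinase. Id4, Zbtb16 (also called PLZF) and Sall4 are nuclear regulators studied in mouse spermatogonial stem cells. Lin28 proteins bind RNA and block the maturation of let-7 microRNAs. Pou5f3 is the fish relative of the pluripotency factor Oct4, and Dnd1 is an RNA-binding protein that zebrafish primordial germ cells need.

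Total RNA was sequenced from whole testis of 16 males, 4 at each of ages 2, 4, 7 and 9. The labels give the ages without a unit, number the samples of each age as biological replicates, and name no strain, genotype or treatment. Each replicate is taken here to be a separate fish. The series names age 2 as its control. Levels are given in CPM, the counts of a gene scaled to a fixed library total and then adjusted between libraries by the TMM method. These values can be compared between libraries but not between genes, because transcript length was not taken into account. In whole tissue, fewer cells of a type and less RNA per cell cannot be told apart.

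Each library held between 5136717 and 8081160 counts assigned to transcripts. Age 2 replicate 1 stood apart from the other 3 age 2 testes, so the tests of the regulators and the counts for gene lists against age 2 are given with and without it. It was singled out from these same data, so adjusted p-values without it cannot be read as those of an ordinary test. Its 15 listed spermatid and sperm tail markers summed to 1056 CPM, against 30.9 to 95.4 CPM in age 2 replicates 2 to 4; the sums were 434 to 1556 CPM at age 4, 695 to 1974 CPM at age 7 and 603 to 1335 CPM at age 9. Its Sertoli cell markers summed to 633 CPM, against 2962 to 7990 CPM in the other 3. gsdf, a growth factor of fish Sertoli cells, stood at 101 CPM against 1934 to 6708 CPM and weighed heavily in these sums. The mean log2 CPM of the 13 tested Sertoli markers differed less, at 4.29 against 5.16 to 5.87 in age 2 replicates 2 to 4. The set is named for germ cells, and the general germ cell marker ddx4 could not be used to check it, since it was at 0 CPM in 13 libraries and below 0.5 CPM in the rest. piwil1, a piRNA-binding protein of germ cells, was present in all 16 libraries at 15.4 to 49.4 CPM.

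The regulators that passed the test were nanos1, nanos2 and id4, and they did so only against age 2. Each was lower at ages 4, 7 and 9 than at age 2, by 16.2-fold, 9.06-fold and 6.34-fold for nanos1, by 10.2-fold, 31.1-fold and 21.5-fold for nanos2, and by 3.37-fold, 6.22-fold and 3.60-fold for id4. No tested regulator rose at any age in the fit of all 16 libraries. The high levels of these 3 genes lay in age 2 replicates 2 to 4, and not in age 2 replicate 1.

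nanos1 stood at 2.08, 98.7, 66.0 and 191 CPM in age 2 replicates 1 to 4. It stood at 3.30, 6.25, 4.07 and 8.36 CPM at age 4, at 9.01, 6.11, 19.9 and 4.32 CPM at age 7, and at 14.2, 12.5, 9.35 and 20.4 CPM at age 9. Age 2 replicate 1 was thus the lowest of all 16 libraries, and age 2 replicates 2 to 4 were the 3 highest, with no older testis above 20.4 CPM. The log2 fold change was -4.02 ± 0.84 (SE) at age 4 (edgeR quasi-likelihood test, Benjamini-Hochberg adjusted p = 0.015), -3.18 ± 0.80 at age 7 (adjusted p = 0.013) and -2.66 ± 0.79 at age 9 (adjusted p = 0.030). Because of age 2 replicate 1, nanos1 overlapped between age 2 and each older age.

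nanos2, the marker of the least differentiated spermatogonia, stood at 1.92, 93.0, 26.2 and 26.2 CPM in age 2 replicates 1 to 4. It stood at 1.42, 1.02, 2.37 and 9.47 CPM at age 4, at 0.667, 1.22, 1.39 and 1.38 CPM at age 7, and at 0.342, 1.28, 1.69 and 3.43 CPM at age 9. All 4 age 7 testes lay below all 4 age 2 testes, although age 2 replicate 1 exceeded the highest of age 7 by little. Age 4 replicate 4 held the most nanos2 of any older testis, and its 9.47 CPM rested on 68 counts. The levels at ages 7 and 9 rested on only 28 and 41 counts over the 4 libraries of each age, against 1018 at age 2. Age 9 replicate 1 held 2 of them, so the size of the fold changes at these ages is uncertain. The log2 fold change was -3.36 ± 0.89 at age 4 (edgeR adjusted p = 0.023), -4.96 ± 0.99 at age 7 (adjusted p = 0.0064) and -4.43 ± 0.95 at age 9 (adjusted p = 0.0085).

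id4, an inhibitor of DNA binding that pairs with bHLH transcription factors, stood at 2.73, 6.53, 10.1 and 9.20 CPM in age 2 replicates 1 to 4. It stood at 1.26, 2.93, 1.36 and 2.79 CPM at age 4, at 0.667, 1.92, 1.08 and 0.864 CPM at age 7, and at 2.05, 1.83, 1.53 and 2.45 CPM at age 9. Here age 2 replicate 1 came closest to its own age. All 4 age 7 and all 4 age 9 testes lay below all 4 age 2 testes. At age 4, replicates 2 and 4 overlapped with age 2 replicate 1. The margin at age 9 was small, with 17 counts in age 2 replicate 1 against 15 in age 9 replicate 4. The log2 fold change was -1.75 ± 0.44 at age 4 (edgeR adjusted p = 0.020), -2.64 ± 0.47 at age 7 (adjusted p = 0.0054) and -1.85 ± 0.45 at age 9 (adjusted p = 0.014). These levels rested on few counts, 321 over the 16 libraries, of which 188 came from age 2.

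**Figure D1:**
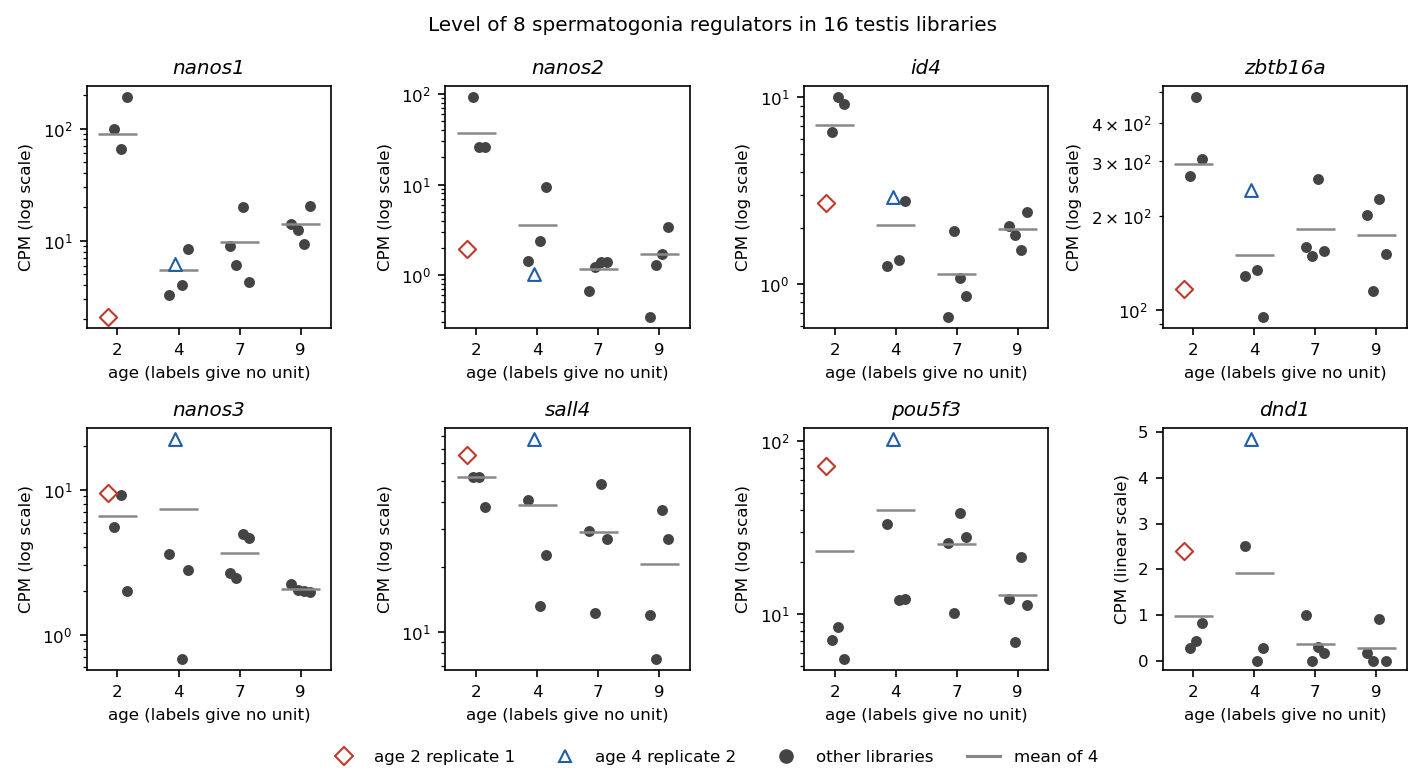
CPM (logarithmic axis, linear for dnd1) of 8 regulators against age, 1 point per library and a grey line for the mean of each 4, with age 2 replicate 1 as a red diamond and age 4 replicate 2 as a blue triangle. nanos1, nanos2, id4 and zbtb16a were high in age 2 replicates 2 to 4 and low in age 2 replicate 1, whereas nanos3, sall4, pou5f3 and dnd1 were highest in age 4 replicate 2.

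zbtb16a, a zinc finger repressor, stood at 117, 270.4, 483 and 305 CPM in age 2 replicates 1 to 4 and at 128, 242, 135 and 94.9 CPM at age 4. It stood at 159, 149.5, 264 and 154 CPM at age 7 and at 202, 115, 228 and 151 CPM at age 9. Age 2 replicates 2 to 4 were the 3 highest of the 16, by a small margin over age 7 replicate 3, and age 2 replicate 1 lay 14th. The log2 fold change was -0.97 ± 0.38 at age 4, -0.69 ± 0.37 at age 7 and -0.75 ± 0.37 at age 9, and none passed edgeR's test with all 16 libraries (adjusted p = 0.076, 0.170 and 0.159).

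sall4, a zinc finger transcription factor of germ and pluripotent cells, stood at 65.4, 52.1, 51.9 and 37.8 CPM in age 2 replicates 1 to 4 and at 40.9, 77.8, 13.2 and 22.7 CPM at age 4. It stood at 29.2, 12.2, 48.1 and 26.9 CPM at age 7 and at 12.0, 7.51, 36.5 and 26.9 CPM at age 9. This gene did not set age 2 replicate 1 apart; that library was the second highest of the 16, after age 4 replicate 2. All 4 age 9 testes lay below all 4 age 2 testes, by a small margin (36.5 against 37.8 CPM). The log2 fold change of -1.32 ± 0.54 at age 9 did not pass (edgeR adjusted p = 0.096), nor did -0.83 ± 0.54 at age 7 (adjusted p = 0.252) or -0.42 ± 0.53 at age 4 (adjusted p = 0.582).

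pou5f3, the Oct4 relative, ran the other way within age 2. It stood at 72.1, 7.09, 8.45 and 5.52 CPM in age 2 replicates 1 to 4 and at 33.3, 103, 12.0 and 12.3 CPM at age 4. It stood at 25.9, 10.1, 38.2 and 28.2 CPM at age 7 and at 12.3, 6.97, 21.5 and 11.3 CPM at age 9. Age 2 replicates 2 to 4, which held the most nanos1 and nanos2, were 3 of the 4 lowest libraries for pou5f3, and age 2 replicate 1 was the second highest. With all 16 libraries the log2 fold change was 0.79 ± 0.81 at age 4, 0.14 ± 0.81 at age 7 and -0.84 ± 0.82 at age 9 (edgeR adjusted p = 0.489, 0.911 and 0.482).

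nanos3, which mouse and zebrafish primordial germ cells need, stood at 9.46, 5.56, 9.18 and 2.01 CPM in age 2 replicates 1 to 4 and at 3.62, 22.3, 0.678 and 2.79 CPM at age 4. It stood at 2.67, 2.45, 4.93 and 4.66 CPM at age 7 and at 2.22, 2.02, 1.99 and 1.96 CPM at age 9. The 4 age 4 fish spanned a 32.9-fold range, the whole range of the 12 older testes, while the 4 age 9 fish lay between 1.96 and 2.22 CPM. The low end of that range, age 4 replicate 3, rested on 4 counts, and the age 9 levels on 11 to 13 counts each. With so few counts, the narrow spread at age 9 cannot be read as a trait of that age. The log2 fold change was 0.18 ± 0.71 at age 4, -0.83 ± 0.73 at age 7 and -1.67 ± 0.76 at age 9 (edgeR adjusted p = 0.877, 0.405 and 0.126).

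dnd1 was not tested across genes, since it held 97 counts in all. The files list 6 transcripts of dnd1, and 5 of them were at 0 in every library. Its level was 0.989 ± 0.972 CPM at age 2, 1.91 ± 2.26 CPM at age 4, 0.371 ± 0.439 CPM at age 7 and 0.273 ± 0.439 CPM at age 9 (SD, n = 4 each). The most dnd1 was found in age 4 replicate 2, at 4.85 CPM (38 counts), then in age 4 replicate 1 at 2.52 CPM and in age 2 replicate 1 at 2.40 CPM. Exact permutation tests against age 2, two-sided, gave p = 0.629 at age 4, 0.314 at age 7 and 0.200 at age 9 (adjusted over the 3 comparisons 0.629, 0.471 and 0.471, with 0.0286 the smallest p that 4 against 4 allows).

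gfra1a, the GDNF co-receptor, had 10 counts in all 16 libraries together, all on 1 of its 2 transcripts. Age 2 held 5 of them, age 4 held 1, and ages 7 and 9 held 2 each. No difference was detectable with so few assigned counts. The counting was per transcript, and 22.8% to 29.4% of fragments fell in its ambiguous class, which is assigned to no transcript, so the counts of gfra1a and dnd1 do not show that their levels were low. Of genes with 1 transcript 73.3% could be tested, and of genes with 2 or more 39.5%.

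The duplicate gfra1b had a single transcript and was higher at the older ages. It stood between 16.9 and 77.6 CPM at age 7 and between 13.5 and 62.6 CPM at age 9, against 6.89 to 8.53 CPM at age 2, with no overlap, and rose by 2.09 ± 0.56 (log2, SE) at age 7 (edgeR adjusted p = 0.016) and 2.22 ± 0.56 at age 9 (adjusted p = 0.017). At age 4 it held 10.9 to 27.2 CPM and the log2 fold change of 1.09 ± 0.55 did not pass (adjusted p = 0.158). The receptor kinase ret, which GDNF receptors share, fell at ages 4, 7 and 9, with log2 fold changes of -1.78, -1.71 and -1.76 (edgeR adjusted p = 0.017, 0.011 and 0.013). Its level was 2.75 to 6.32 CPM in the older testes, against 12.2 to 22.7 CPM in age 2 replicates 2 to 4 and 5.29 CPM in age 2 replicate 1. The ligand gdnfa held 3.30 to 12.8 CPM over all libraries. Of 17 listed genes of the GDNF pathway in the files 7 could be tested. At age 4, 0 rose and 2 fell, at age 7, 1 rose and 2 fell, and at age 9, 1 rose and 1 fell; gfra3, in mammals the receptor of the GDNF relative artemin, was the other that fell, at ages 4 and 7 (log2 fold change -2.63 and -2.50, edgeR adjusted p = 0.023 and 0.018). Of all tested genes 12.0%, 15.9% and 11.5% fell and 6.66%, 11.5% and 6.82% rose at these ages, so 1 of 7 is near the share over all genes. The median log2 fold change of the 7 was -0.70, -1.01 and -0.64. The counts were 3, 4 and 2 lower and 0, 1 and 1 higher without age 2 replicate 1. In that fit 22.3%, 23.6% and 20.6% of all genes were lower and 23.3%, 24.2% and 21.7% higher. ret then had -1.99, -1.91 and -1.99 and gfra1b 2.10 and 2.20 at ages 7 and 9.

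lin28aa and lin28ab did not share a pattern. lin28aa was highest in age 4 replicate 2 at 14.4 CPM and in age 2 replicate 1 at 4.81 CPM, and lay between 0.183 and 3.79 CPM elsewhere. lin28ab was at its lowest, 3.05 CPM, in age 2 replicate 1 and next lowest in age 4 replicate 2, at 3.83 CPM, and at its highest in age 2 replicate 3, at 17.5 CPM. Neither passed edgeR's test at any age (adjusted p = 0.202 to 0.589 for lin28aa and 0.174 to 0.306 for lin28ab). Without age 2 replicate 1, lin28ab fell at ages 7 and 9 (log2 fold change -0.96 ± 0.35 and -1.09 ± 0.35, adjusted p = 0.032 and 0.019). The more distant relative lin28b, at 51.2 to 295 CPM, did not pass with all 16 libraries either (adjusted p = 0.364 to 0.911).

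In all, 3 of the 7 tested regulators fell and 0 rose in each comparison with age 2. Of all 15979 tested genes, 12.0% fell and 6.66% rose at age 4, 15.9% fell and 11.5% rose at age 7, and 11.5% fell and 6.82% rose at age 9. The median log2 fold change of the 7 was -0.97 at age 4, -0.83 at age 7 and -1.67 at age 9, against -0.05, -0.08 and -0.03 over all tested genes. Without regard to the test, 0 of the 7 lay below age 2 without overlap at age 4 (4.47% of all tested genes), 2 at age 7 (nanos2 and id4, 8.37% of all) and 2 at age 9 (id4 and sall4, 7.93% of all). The 3 comparisons share the age 2 libraries, so they are not independent.

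Without age 2 replicate 1, with 16597 genes tested, 5 of the 7 regulators passed at ages 4 and 7 and 4 at age 9. nanos1, nanos2, id4 and zbtb16a fell and pou5f3 rose at ages 4 and 7; at age 9 the same 4 fell and none rose. zbtb16a then had a log2 fold change of -1.16 ± 0.32, -0.87 ± 0.32 and -0.97 ± 0.32 at ages 4, 7 and 9 (edgeR adjusted p = 0.0075, 0.032 and 0.022). pou5f3 had 2.59 ± 0.70 at age 4 (adjusted p = 0.0075), 1.94 ± 0.69 at age 7 (adjusted p = 0.030) and 0.94 ± 0.67 at age 9 (adjusted p = 0.277), where its direction with all 16 libraries was the opposite. Calls over all genes also grew: 22.3% of genes fell and 23.3% rose at age 4, 23.6% fell and 24.2% rose at age 7, and 20.6% fell and 21.7% rose at age 9. Age 2 replicate 1 had the lowest zbtb16a and the highest pou5f3 of age 2. The added calls of these genes thus follow in part from the choice to leave it out, which was made from the same data. The sums of sperm tail and Sertoli markers given above also set age 2 replicate 1 apart, and their part in the split was not tested.

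**Figure D2:**
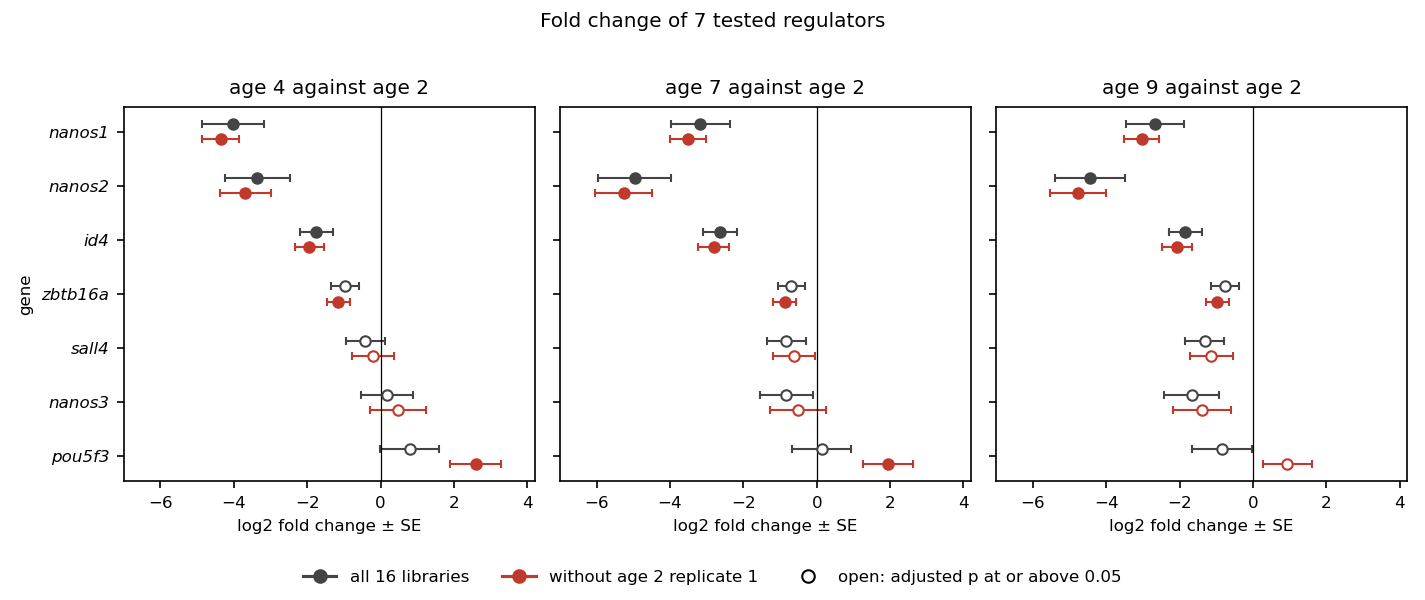
Log2 fold change (horizontal axis, bars ± SE) of the 7 tested regulators at ages 4, 7 and 9 against age 2, with all 16 libraries in grey and without age 2 replicate 1 in red; filled points have an adjusted p under 0.05. nanos1, nanos2 and id4 were lower in every panel under both fits, and pou5f3 was higher at ages 4 and 7 without that library.

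The calls at age 7 were kept when any library was left out in turn, whereas several at ages 4 and 9 were not. At age 4 the call of nanos1 was lost without age 4 replicate 3 (edgeR adjusted p = 0.060). That of nanos2 was lost without age 2 replicate 2 (0.092), 3 (0.060) or 4 (0.053) or age 4 replicate 1 (0.069), 2 (0.054) or 3 (0.074), and that of id4 without age 2 replicate 2 (0.0505), 3 (0.074) or 4 (0.065) or age 4 replicate 1 (0.065) or 3 (0.070). At age 9 the call of nanos1 was lost without age 2 replicate 2 (0.069), 3 (0.056) or 4 (0.105) or age 9 replicate 1 (0.072), 2 (0.078) or 3 (0.081), and that of id4 without age 2 replicate 3 (0.0501). The size of the nanos1 change rested partly on age 2 replicate 4, without which it was -3.27, -2.43 and -1.94 (log2) at ages 4, 7 and 9. That of nanos2 rested partly on age 2 replicate 2, without which it was -2.33, -3.94 and -3.41, and at age 4 it was -4.49 without age 4 replicate 4. Fitted on the 2 ages alone, nanos1 did not pass at any age (adjusted p = 0.098, 0.075 and 0.097).

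Among the older ages 0 of the 7 regulators passed. The spread in these tests was estimated over all ages, and that of age 2 was wide for nanos1 and nanos2. With the 2 ages fitted alone 0 passed as well. Over all genes 2 passed at age 7 against age 4 (0.0125%), 0 at age 9 against age 4 (0%) and 0 at age 9 against age 7 (0%); at an unadjusted p under 0.05 the counts were 623, 1505 and 1131, and DESeq2 called 13, 108 and 62. nanos1 averaged 14.1 ± 4.65 CPM at age 9 and 5.49 ± 2.28 CPM at age 4 (SD, n = 4 each), with all 4 age 9 testes above all 4 of age 4, as in 5.29% of genes. The log2 fold change was 1.35 ± 0.78 (edgeR adjusted p = 0.609). nanos3 averaged 2.05 ± 0.119 CPM at age 9 and 3.68 ± 1.30 CPM at age 7, again without overlap, as in 2.61% of genes (log2 fold change -0.84 ± 0.76, edgeR adjusted p = 0.820). The margin was small, with 13 counts in age 9 replicate 1 against 14 in age 7 replicate 2. The order of the age means was 2, 9, 7, 4 for nanos1, 2, 4, 9, 7 for nanos2 and id4, 2, 7, 9, 4 for zbtb16a, 2, 4, 7, 9 for sall4, 4, 2, 7, 9 for nanos3 and 4, 7, 2, 9 for pou5f3, from high to low. Of the neighbours in these orders, only age 2 and the age next below it for nanos1, nanos2 and id4 differed by edgeR's test.

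Within a library, the balance of the 3 nanos genes does not depend on the scaling between libraries. nanos3 gave 70.2% of the summed nanos counts in age 2 replicate 1 (59 of 84 counts, 95% exact binomial interval 59.3% to 79.7%), and 2.82%, 9.05% and 0.913% in age 2 replicates 2 to 4. In age 4 replicate 2 it gave 75.4% (175 of 232 counts, 69.4% to 80.8%), and 9.52% to 43.4% in the other age 4 testes. nanos2 had its largest shares in age 2 replicate 2, at 47.1%, and age 4 replicate 4, at 45.9%. nanos1 gave 15.5% to 87.1% at age 2, 21.1% to 57.1% at age 4, 41.7% to 75.9% at age 7 and 71.8% to 84.7% at age 9, where its spread was narrowest. These intervals cover counting error only, and the shares are of counts, so the longer transcript weighs more.

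**Figure D3:**
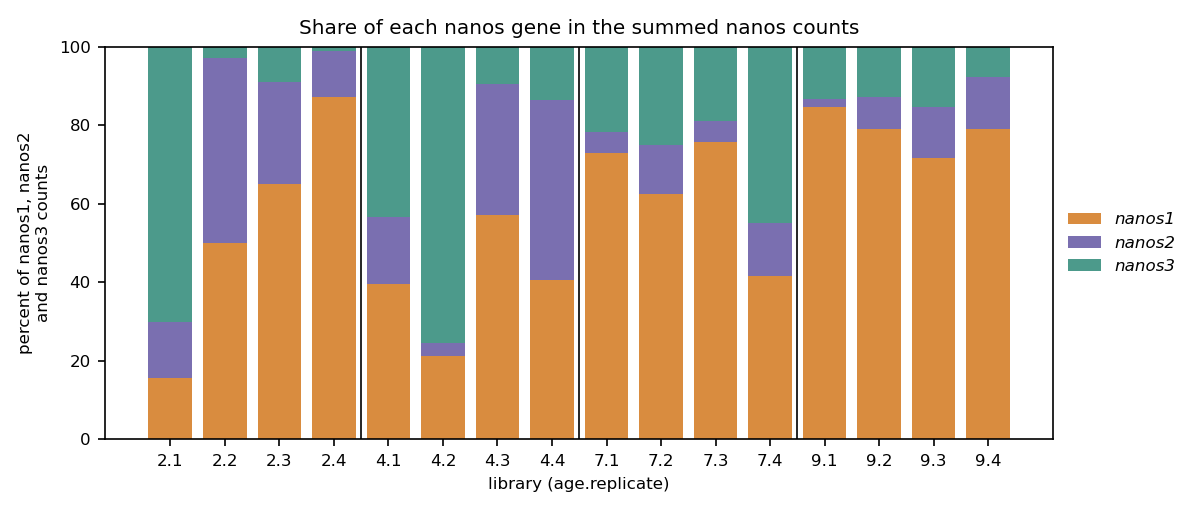
Percent of the summed nanos1, nanos2 and nanos3 counts (vertical axis) from each gene in the 16 libraries, ordered by age and replicate. nanos3 made up 70.2% in age 2 replicate 1 and 75.4% in age 4 replicate 2, and nanos1 between 71.8% and 84.7% in the 4 age 9 testes.

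Between genes, likeness of pattern was measured as the root mean square difference of log2 CPM over the 16 libraries, each gene centred on its own mean. Among the 7 tested regulators the closest pair was nanos3 and sall4, at 0.713 log2 units, and the farthest was nanos2 and pou5f3, at 2.75. The 3 nanos genes were not close to each other: nanos1 and nanos2 differed by 1.31, nanos1 and nanos3 by 2.02 and nanos2 and nanos3 by 2.10. lin28aa lay nearest to sall4 (0.683) and nanos3 (0.706), and lin28ab to zbtb16a (0.577). nanos3, sall4, pou5f3, dnd1 and lin28aa shared the same highest library, age 4 replicate 2, and all but dnd1 shared age 2 replicate 1 as the second.

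**Figure D4:**
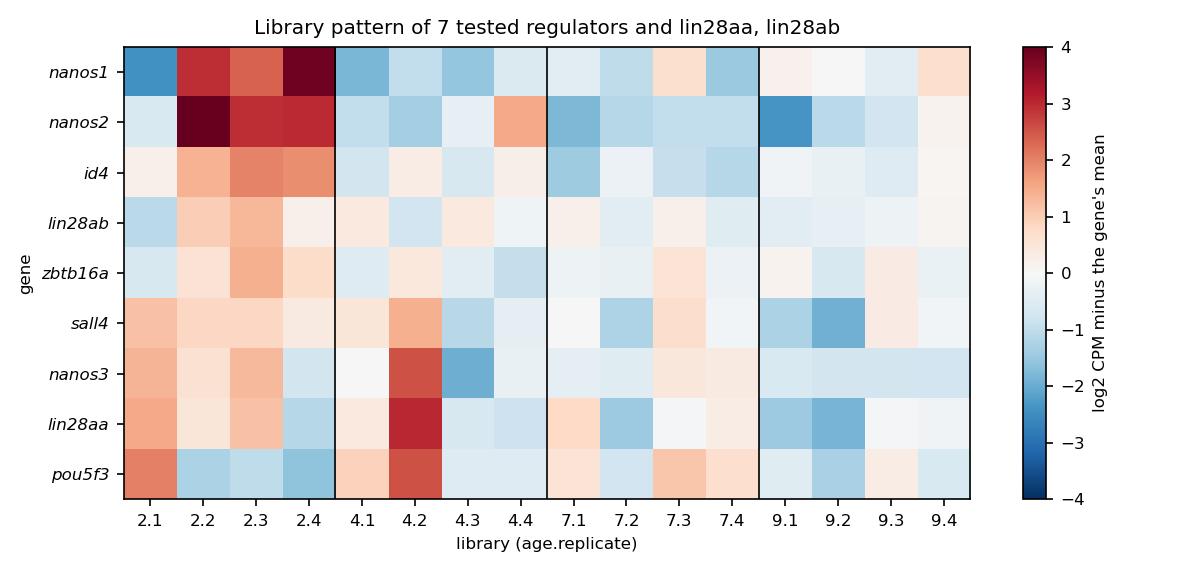
Log2 CPM minus the gene's mean (colour, blue low and red high) for the 7 tested regulators and lin28aa and lin28ab (rows) in the 16 libraries (columns, age and replicate). The upper rows are red in age 2 replicates 2 to 4, and the lower rows, from sall4 to pou5f3, are red in age 2 replicate 1 and age 4 replicate 2.

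Outside the set, 11045 tested genes with a symbol and a mean of at least 1 CPM were compared with each regulator. The gene most like nanos1 was gsdf, the Sertoli cell growth factor, at 0.501 log2 units, followed by gli2b, a Hedgehog pathway transcription factor, at 0.562. gsdf fell at ages 4, 7 and 9, with log2 fold changes of -3.99 ± 0.78, -4.05 ± 0.78 and -2.98 ± 0.75. These were, without age 2 replicate 1, -4.33 ± 0.47, -4.38 ± 0.47 and -3.34 ± 0.45. nanos2 was most like kank1a (0.783), fstl5 (0.797), ncana (0.822), adgrb1a (0.860) and klf11a (0.863), each high in age 2 replicates 2 to 4. kank1a, for example, stood at 1.50 to 7.24 CPM in the older testes, against 62.4 to 72.6 CPM in age 2 replicates 2 to 4 and 2.89 CPM in age 2 replicate 1. All of these genes were picked here for their likeness to nanos1 or nanos2 over the same 16 libraries. Their like changes with age thus follow from that choice and are no separate support.

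The nearest genes of the other regulators were actn3b (0.292) and zgc:174164 (0.295) for id4, si:ch211-264f5.6 (0.302) and myo1d (0.319) for zbtb16a, gnaia (0.398) and dact2 (0.411) for sall4, wee2 (0.525) and dact2 (0.543) for nanos3, and mt2 (0.433) and cdca9 (0.556) for pou5f3. wee2 is a kinase that holds oocytes in meiosis in mammals, and mt2 a metallothionein. dact2 was near to both nanos3 and sall4 and ranged from 4.57 to 46.0 CPM in the older testes, against 18.4 to 26.8 CPM in age 2 replicates 2 to 4 and 26.0 CPM in age 2 replicate 1.

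**Figure D5:**
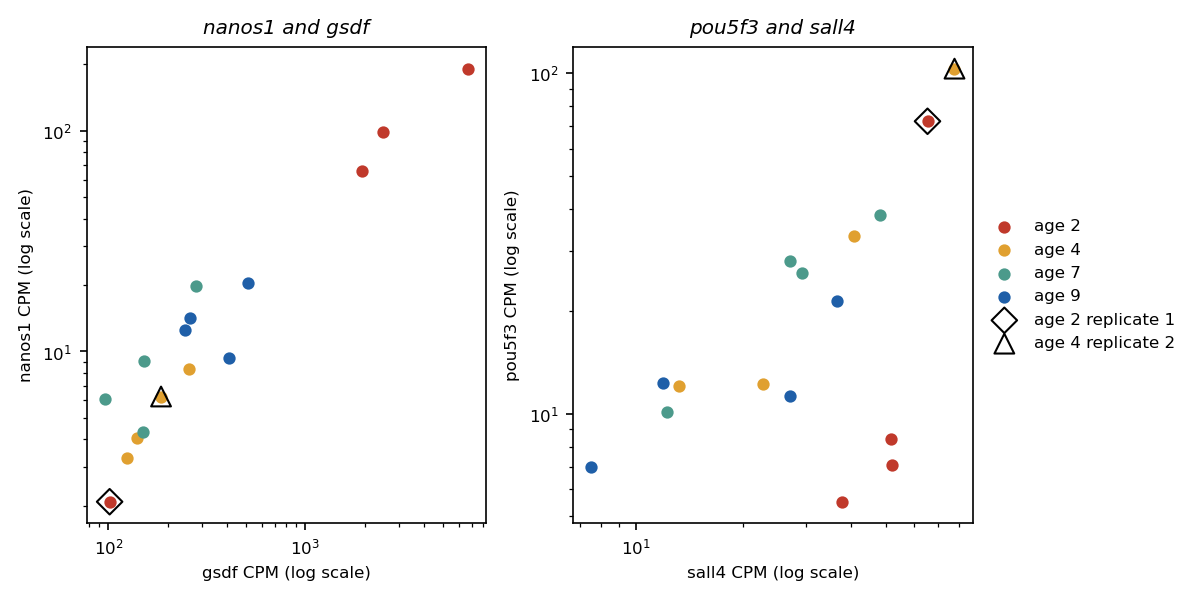
CPM of nanos1 against gsdf (left) and of pou5f3 against sall4 (right), 1 point per library on logarithmic axes, coloured by age, with age 2 replicate 1 in a diamond and age 4 replicate 2 in a triangle. nanos1 and gsdf rank age 2 replicates 2 to 4 highest; pou5f3 and sall4 share age 4 replicate 2 and age 2 replicate 1 as their highest libraries, while age 2 replicates 2 to 4 lie apart with much sall4 and little pou5f3.

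The shares of all tested genes that fell (12.0%, 15.9% and 11.5% at ages 4, 7 and 9) and rose (6.66%, 11.5% and 6.82%) are the background for the counts of other gene lists. For counts without age 2 replicate 1 the background is 22.3%, 23.6% and 20.6% that fell and 23.3%, 24.2% and 21.7% that rose. Of 21 tested genes on a list of other markers of undifferentiated spermatogonia, 5 fell and 0 rose at age 4, 4 fell and 0 rose at age 7, and 5 fell and 0 rose at age 9, with a median log2 fold change of -0.71, -1.08 and -0.95; at age 7 the share is close to that over all genes. trim71, an RNA-binding ubiquitin ligase and let-7 target, averaged 85.2 ± 3.90 CPM at age 4, 70.1 ± 13.9 CPM at age 7 and 70.8 ± 8.48 CPM at age 9, against 167 ± 76.9 CPM at age 2 (SD, n = 4 each). Its log2 fold changes were -0.97, -1.25 and -1.24 (edgeR adjusted p = 0.031, 0.0089 and 0.011). taf4b, a germ cell subunit of the general transcription machinery, fell at all 3 ages (-1.07, -1.36 and -1.25) and ccnd2b, a D-type cyclin, at ages 7 and 9 (-1.12 and -0.95). Without age 2 replicate 1 the counts were 10 lower and 1 higher, 9 lower and 0 higher, and 8 lower and 0 higher, where 22.3%, 23.6% and 20.6% of all genes were lower.

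Among paralogs of the set, sall1b and sall3b fell at all 3 ages. The log2 fold changes were -1.52, -2.21 and -2.35 for sall1b and -3.03, -3.19 and -2.77 for sall3b. id3 fell at age 9 (-1.70, edgeR adjusted p = 0.046) and sall3a rose at age 7 (1.03 ± 0.34, adjusted p = 0.035). In all, 2 of 10 tested paralogs fell and 0 rose at age 4, 2 fell and 2 rose at age 7, and 3 fell and 1 rose at age 9; gfra1b, a paralog as well, is among those that rose. At age 7 both shares are near those over all genes. The paralog counts without age 2 replicate 1 were 3, 4 and 4 lower and 1, 2 and 1 higher, where 22.3%, 23.6% and 20.6% of all genes were lower. Of 8 tested Pumilio and CCR4-NOT genes, which work with Nanos proteins on RNA, 0 fell, and 1, 2 and 1 rose at ages 4, 7 and 9; 1 of 8 is near the share of all genes that rose. With age 2 replicate 1 left out, 3, 4 and 3 rose and 0 fell, where 23.3%, 24.2% and 21.7% of all genes rose. cnot2 rose at each age (log2 fold change 1.87 ± 0.46, 1.92 ± 0.46 and 1.80 ± 0.46) and cnot4b at age 7 (0.80 ± 0.24), while cnot11 had 0.58, 0.63 and 0.31 (edgeR adjusted p = 0.135, 0.091 and 0.436) and passed at all 3 ages without that library (1.04, 1.11 and 0.74).

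On a list of general germ cell genes, 10 could be tested: piwil1, piwil2, tdrd1, tdrd5, tdrd12, tdrkh, asz1, ddx43, henmt1 and rnf17. The general markers ddx4 and dazl had too few counts, so the result covers these 10 and not germ cell genes in general. Of the 10, 5 fell and 0 rose at age 4. At age 7, 7 fell and 0 rose, and at age 9, 7 fell and 1 rose. rnf17, a Tudor domain protein of germ cells, had log2 fold changes of -2.02, -2.35 and -2.41, tdrd1, of the piRNA pathway, -1.92, -2.31 and -2.33, and the helicase ddx43 -1.08, -1.22 and -1.38. piwil1 rose at age 9 (0.86 ± 0.25), and piwil2 and tdrkh passed at no age. Without age 2 replicate 1 the counts were 5, 7 and 7 lower and 1 higher at each age. Summed over 17 listed genes, with tdrd6 at 0, the level was 331 to 741 CPM at age 4, 388 to 494 CPM at age 7 and 343 to 542 CPM at age 9; it was 735 CPM in age 2 replicate 1 and 1443 to 2268 CPM in age 2 replicates 2 to 4. Of 15 tested genes of differentiating spermatogonia and meiosis, 2 rose and 1 fell at age 4, 2 rose and 0 fell at age 7, and 2 rose and 1 fell at age 9, among them the heat shock factor hsf5 (1.45 ± 0.45, 1.76 ± 0.45 and 1.40 ± 0.45) and, at ages 7 and 9, the meiotic chromosome axis gene hormad1 (1.57 and 1.28); sycp2l fell at age 9 (-2.18). Without age 2 replicate 1, 7, 7 and 6 rose and 1, 1 and 2 fell, where 23.3%, 24.2% and 21.7% of all genes rose. kita, kitb and dmrt1 were among the 6 listed meiosis and differentiation genes at 0 in every library. Because ambiguous fragments were assigned to no transcript, a 0 here, as for tdrd6, wt1a and wt1b, does not show that the gene was silent.

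Markers of other cell types were counted in the same way. Of all tested genes 12.0%, 15.9% and 11.5% fell and 6.66%, 11.5% and 6.82% rose at ages 4, 7 and 9. Without age 2 replicate 1 the shares were 22.3%, 23.6% and 20.6% that fell and 23.3%, 24.2% and 21.7% that rose. Of 13 tested Sertoli markers, 2 fell and 1 rose at age 4, 3 fell and 1 rose at age 7, and 1 fell and 0 rose at age 9, with gsdf lower at each age and sox9a lower and inhbaa higher at ages 4 and 7. These counts are near the shares over all genes. With age 2 replicate 1 left out, 4, 4 and 3 fell and 1 rose at each age, where 22.3%, 23.6% and 20.6% of all genes fell. Their summed level was 773 to 1236 CPM at age 4, 787 to 1451 CPM at age 7 and 817 to 2183 CPM at age 9, with wt1a and wt1b at 0. Of 10 tested spermatid and sperm tail markers, 3, 4 and 2 rose and 0 fell. ccdc40 and spata18 were among them at each age and tekt4 at ages 4 and 7. Without age 2 replicate 1 the counts were 9, 8 and 8. The sperm tail and Sertoli markers were used above to set that library apart. Their added calls thus follow in part from leaving it out and are no separate result. Of 9 macrophage markers 6, 5 and 8 rose and 0 fell, the same numbers with and without age 2 replicate 1, with csf3r and marco at each age and irf8 at age 9; their sums were 124 to 314 CPM at age 4, 137 to 246 CPM at age 7 and 233 to 463 CPM at age 9, against 62.7 to 85.5 CPM at age 2. Of 6 tested Leydig cell markers 0, 1 and 1 rose and 0 fell, insl3 in both cases, while nr5a1a and hsd17b3 did not pass. A count of 1 of 6 cannot be set apart from the shares over all genes. Without age 2 replicate 1, insl3 rose at each age and nr5a1a fell at age 4. Of 6 smooth muscle markers myh11a fell at age 4, and 1 and 3 rose at ages 7 and 9, among them desmb at both and cnn1b at age 9. The counts of 1 at ages 4 and 7 likewise cannot be set apart from the shares over all genes. Without age 2 replicate 1, 0, 2 and 3 rose and 1, 0 and 1 fell. The erythrocyte markers tested, rhag and cahz, did not pass in either fit. All 104 calls of listed genes with 16 libraries, counted over the 3 ages, were also made in the same direction without age 2 replicate 1. That library was singled out after the data were seen, and leaving it out raised the calls over all genes at each age. The kept calls are thus no independent support, and they were not followed without other libraries. The part of these cell types in the change of the regulators was not tested.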

How the data were processed

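The labels name a Zymo kit for RNA extraction and NEBNext Ultra II for the libraries. STAR 2.7.5 and HTSeq 0.11.1, with Trimmomatic 0.39 and edgeR 4.4.2, are named in the submitters' processing notes, which also list FastQC 0.11.9 and MultiQC 1.10.1. Settings, strandedness and genome build were not given in the sources used here. Each deposited file holds raw counts per transcript (50072 transcripts), with 5 summary lines that held 65.2% to 76.2% of fragments and were left out. Without strand information, reads from overlapping antisense genes cannot be told apart. Symbols were checked against RefSeq Billie_1.0 (48916 transcripts matched by accession); coordinates and sequences were not used here.

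Counts were summed per symbol. Genes kept by filterByExpr (minimum count 10, total 15) numbered 15979. TMM factors ranged over 0.773 to 1.13. Tests used edgeR 4.0.16 in R 4.3.3 (quasi-likelihood, robust, 1 coefficient per age, 12 residual degrees of freedom, two-sided, Benjamini-Hochberg over all tested genes at 0.05). SE is the absolute log2 fold change over the square root of F. CPM used the TMM-scaled totals of tested genes, and log2 CPM a prior count of 2. In the smallest library 3 counts equal 0.584 CPM before this scaling. No library was a duplicate of another of the same age, and pairs from different ages were not checked for this. p-values measure the spread between fish, estimated for each gene over all ages together. Tests among the older ages thus also carry the spread of age 2. The procedure was tested on simulated data with changes set at age 9 against age 2. Among changed genes kept by the filter it recovered 12% of 2-fold and 57.4% of 4-fold changes. For 8-fold and 16-fold changes it recovered 100% and 93.8%. A regulator that did not pass is thus not shown to be unchanged.

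The regulators, lists and alternatives were chosen with earlier results of these data known. Named genes were every regulator, the 3 smallest p per list with further called genes named after their values were seen, and the nearest genes by pattern (5 for nanos2, 2 for each other). Alternatives were DESeq2 1.42.0 and its size factors, limma 3.58.1 voom with quality weights, no filter, the replicate number as a block, 2 ages alone, transcripts as deposited and each library left out. Counts and fold changes of list genes without age 2 replicate 1 were added after seeing the data. Summaries used python 3.11.15 and scipy 1.17.1.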

Additional observations from a re-analysis of the deposited data

Results flagged for a closer look

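A library far from the other 3 of its age, by Dixon's outlier test on CPM, was seen in 5 of 38 groups of 4. The chance rate of about 1 in 20 holds for normally distributed values in independent groups. CPM of genes from the same libraries need not meet this, so no excess over chance is read from the count. nanos2 was far above the rest of age 4 in replicate 4, at 9.47 CPM. In age 4 replicate 2, nanos3 (22.3 CPM) and lin28aa (14.4 CPM) were both far above the other 3. zbtb16a was far above the rest of age 7 in replicate 3, at 264 CPM. pou5f3 was far above the rest of age 2 in replicate 1, at 72.1 CPM.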

How the results depend on the processing

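The counts of regulators that passed among the older ages were 0 under every alternative run. Against age 2 they were 3, 3 and 3 at ages 4, 7 and 9; leaving out 1 library each gave 0 to 5, 3 to 5 and 1 to 4, voom with quality weights 5, 4 and 5, and the 2 ages alone 0, 1 and 2. Over all genes, 2979, 4368 and 2934 became 1 to 7581, 1945 to 7941 and 1157 to 7028 without 1 library, 7861, 8587 and 7806 with voom, and 0, 795 and 987 on 2 ages alone. Among older ages, leaving out 1 library gave 0 to 3 genes at age 7 against 4, 0 to 8 at age 9 against 4 and 0 to 1 at age 9 against 7. For these 3, DESeq2 gave 13, 108 and 62 and voom 0, 63 and 242. At age 7 against age 4, no filter and the block gave 0; on 2 ages alone, 8 passed at age 9 against 4 and 6 at age 9 against 7.

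Of 461 alternative values for single regulators 412 kept direction and call, 26 lost the call, 12 gained it and 11 reversed; no value was available for nanos2 at age 7 on 2 ages alone. The reversed values were not past the threshold in either form. They were nanos3 at age 4 with voom (-0.40), the block (-0.19), without age 2 replicate 4 (-0.09) and without age 4 replicate 2 (-1.43); pou5f3 at age 4 without age 4 replicate 2 (-0.26), at age 7 without age 2 replicate 2 (-0.16), 3 (-0.14) or 4 (-0.20) or age 7 replicate 3 (-0.10), and at age 9 with voom (0.76) and without age 2 replicate 1 (0.94). Over all leave-one-out fits these ranged over -1.43 to 0.56 for nanos3 at age 4, and for pou5f3 over -0.26 to 2.59 at age 4, -0.20 to 1.94 at age 7 and -1.20 to 0.94 at age 9. The causes were not tested. The few counts assigned to dnd1 and gfra1a limit what can be read from them.

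Same-numbered libraries of different ages had correlations of their deviations from -0.22 to 0.41 over 24 pairs (median 0.04), against -0.36 to 0.38 over 72 pairs of different number (median -0.01). Not every pair was above 0.1, so the numbers were not taken to pair the fish; 8 of 16 libraries correlated best with their own number, where 3 of the 12 libraries of other ages share it, which is at most a hint. With the replicate block 3, 3 and 2 regulators passed against age 2 (3199, 4439 and 2790 genes), the one lost being nanos1 at age 9 (-2.33, adjusted p = 0.066). The same call was lost with no filter (-2.62, adjusted p = 0.052) and on 2 ages alone; nanos1 at age 9 kept its call under 13 of 22 alternatives.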
